A study of Mus musculus with 2 samples.

Results

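A set of 10 genes of axon growth and of the neurofilament was followed through single cells of the embryonic mouse eye. The genes are Sncg, Stmn2, Stmn3, Gap43, Nefl, Nefm, Ina, Crmp1, Dpysl3 and Nrn1. They were taken by symbol, and all 10 were found among the 32285 genes counted. The cells came from eye cups of E17.5 mouse embryos, pooled into 1 library for Myrf humWT/humWT and 1 for Myrf humdG/humdG. In both alleles the human last exon of MYRF replaces the mouse exon, and humdG also carries a frameshift variant near the C terminus, so the control is itself a humanized mouse. Myrf encodes a membrane-bound transcription factor. GEO's labels give 3 pooled eye cups for each library, without cornea, lens and optic nerve, and their protocol speaks of conditional knockout mice, whereas the methods of the study give 3 mice and both eyes per genotype with the cornea left on. Which dissection and pooling these libraries had cannot be told apart from these sources. With 1 library per genotype there is no replicate, no test between genotypes was possible, and all intervals are 95% intervals that cover counting error only.

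A growing axon is built from microtubules and neurofilaments and is steered by its growth cone. Retinal ganglion cells are the neurons whose axons leave the eye through the optic nerve, and horizontal cells are inner retinal neurons that also lay down neurofilament. Nefl and Nefm encode the light and medium neurofilament subunits and Ina encodes alpha-internexin, which assembles with them. Stmn2 and Stmn3 are stathmins, which bind tubulin and control microtubule turnover. Crmp1 and Dpysl3 belong to the collapsin response mediator proteins, which link guidance cues to the cytoskeleton, Gap43 is a membrane protein of growth cones, Nrn1 encodes neuritin, a membrane-anchored protein that promotes neurite growth, and Sncg encodes gamma-synuclein, long used as a marker of retinal ganglion cells.

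After filtering, the Myrf humWT/humWT library held 16166 cells with a median of 3785 unique molecular identifiers (UMIs, counts of captured transcripts) and the Myrf humdG/humdG library 18173 cells with a median of 2625. The libraries shared 102 barcodes. Cells were clustered without using the 10 genes or their relatives. None of the 30 clusters could be named from the ganglion cell markers (in 1 of them 6 of these markers were raised, beside 6 amacrine and horizontal cell markers, but none of the latter was among its 20 leading genes), so the 3 clusters of inner retinal neurons were divided again, a step added after the data were seen. It gave a subcluster of 25 cells from Myrf humWT/humWT plus 37 from Myrf humdG/humdG in which 10 of 11 ganglion cell markers were raised (among them Pou4f1, Pou4f2, Pou4f3, Rbpms and Isl1, but not Shh). It is called ganglion cell-like, and Sncg, Gap43 and Nefl, which the clustering had not used, were among its 10 leading genes. Levels are given as CPM, the UMIs of a gene per 1000000 UMIs of the group, first for Myrf humWT/humWT, then for Myrf humdG/humdG where 2 values stand together. Pou4f1 was at 206 and 127 CPM there, against 7.41 and 8.02 CPM in erythroid (red blood cell-like) cells, a cell type that should not express it. The amacrine and horizontal cell gene Tfap2b was at 34.4 and 33.2 CPM against 692 and 890 CPM in the Lhx1 subcluster, and the peripheral neuron markers Avil and Tlx3 had 0 UMIs in both libraries. Runx1, of the same list, had 1 UMI in each library, but the nicotinic receptor genes Chrna3, at 75.7 and 166 CPM, and Chrnb4, at 17.2 and 35.9 CPM, were present.

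The start regions of Stmn3 and Ina are printed because they are the 2 genes of the 10 for which RefSeq gave a window that lies wholly outside the annotated gene. Each line gives the 250 bases before the start, 5′ to 3′ on the strand of the gene (GRCm38.p6), with the searched motifs in capitals.
Stmn3, chr2:181314501-181314750, minus strand: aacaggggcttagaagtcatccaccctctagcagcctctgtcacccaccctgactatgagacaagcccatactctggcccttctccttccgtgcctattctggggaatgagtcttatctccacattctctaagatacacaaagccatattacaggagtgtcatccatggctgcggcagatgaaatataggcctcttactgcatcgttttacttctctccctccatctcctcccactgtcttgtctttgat
Ina, chr19:47014431-47014680, plus strand: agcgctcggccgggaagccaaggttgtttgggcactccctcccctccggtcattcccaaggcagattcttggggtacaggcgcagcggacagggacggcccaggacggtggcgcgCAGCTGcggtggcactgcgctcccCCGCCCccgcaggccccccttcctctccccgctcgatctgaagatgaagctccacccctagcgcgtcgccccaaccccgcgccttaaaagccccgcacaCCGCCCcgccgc
On both strands 5 motifs were searched, namely the TATA box (TATAAA), the CCAAT box, the GC box (GGGCGG), an E-box (CAGCTG) and the core that POU factors bind (ATTAAT). The window of Stmn3 held none. That of Ina held GGGCGG or its complement at 2 places and CAGCTG at 1. Of 32851 promoter windows of this length, 32.7% held the GC box, 13% the E-box, 12.4% the TATA box, 33.8% the CCAAT box and 4.39% the POU core. RefSeq windows were found for 4 of the 10 genes, and the 2 not printed were Sncg and Crmp1, both with a GGGCGG match. A match describes the letters and is not a bound site.

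Taken as a sum, the 10 genes made up 10417 CPM of all UMIs in Myrf humWT/humWT ganglion cell-like cells (10049 to 10795) and 9051 CPM (8743 to 9366) in those of Myrf humdG/humdG. The next highest group was the Lhx1 subcluster in Myrf humWT/humWT, whereas in Myrf humdG/humdG it was the Isl1 subcluster. The Lhx1 subcluster, an amacrine and horizontal-like group of 31 and 59 cells that has Lhx1 among its leading genes and also expresses Onecut1, had 4931 CPM (4692 to 5179) and 3525 CPM (3351 to 3706). The Isl1 subcluster of 20 and 77 cells had 2675 CPM (2430 to 2939) and 3979 CPM (3836 to 4127). Red blood cell-like cells, which serve here as the background for free RNA in droplets, had 226 CPM (207 to 247) and 401 CPM (365 to 440). Although the ganglion cell-like cells held 0.24% and 0.34% of the UMIs of their libraries, they held 4.98% and 4.06% of the UMIs of the 10 genes. These genes were therefore concentrated there, but most of their UMIs lay in other cells. For Sncg the share in ganglion cell-like cells was 30.4% and 11.4%, the highest of the 10 genes in each library, and for Dpysl3 it was 0.632% and 0.942%, the lowest.

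Against all other inner retinal neurons, 8 of the 10 genes were at least 2-fold higher in ganglion cell-like cells in both libraries, where 3.92% of 13484 genes were. The exceptions were Dpysl3 in both libraries and Crmp1 in Myrf humdG/humdG. Since ganglion cell-like cells were set apart by other genes of the same cells, these counts are a description. Sncg was 100-fold higher in Myrf humWT/humWT (80.8 to 126) and 46.4-fold higher in Myrf humdG/humdG (40.2 to 53.7). The level of Sncg in the other inner neurons was below that in red blood cell-like cells in Myrf humdG/humdG and above it in Myrf humWT/humWT. The part of this background in the 2 folds was not tested. Nrn1 was 56.9-fold (30.1 to 114) and 20.1-fold (13.8 to 29.1) higher, from 37 and 47 UMIs. Its level in the other inner neurons lay within the interval of red blood cell-like cells in both libraries, so these folds rest on the background. In each library 1 ganglion cell-like cell gave 43.2% and 19.1% of the Nrn1 UMIs, and without it Nrn1 was at 81.3 and 114 CPM there. Gap43 was 22.5-fold (19.99 to 25.4) and 20.8-fold (19.0 to 22.8) higher. The stathmins Stmn2 and Stmn3 had ratios of 5.01 to 6.63, with 385 and 464 CPM of Stmn2 in the other inner neurons, and Dpysl3 had 1.80 and 1.48. The median of the log2 ratios was 2.80 and 2.73 for the 10 genes, for the 30 measured genes of a list of 33 related axon genes 1.70 and 1.10, and for all genes tested -0.06 and -0.21. Of the related genes, 15 of the 30 were at least 2-fold higher in both libraries.

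**Figure D1:**
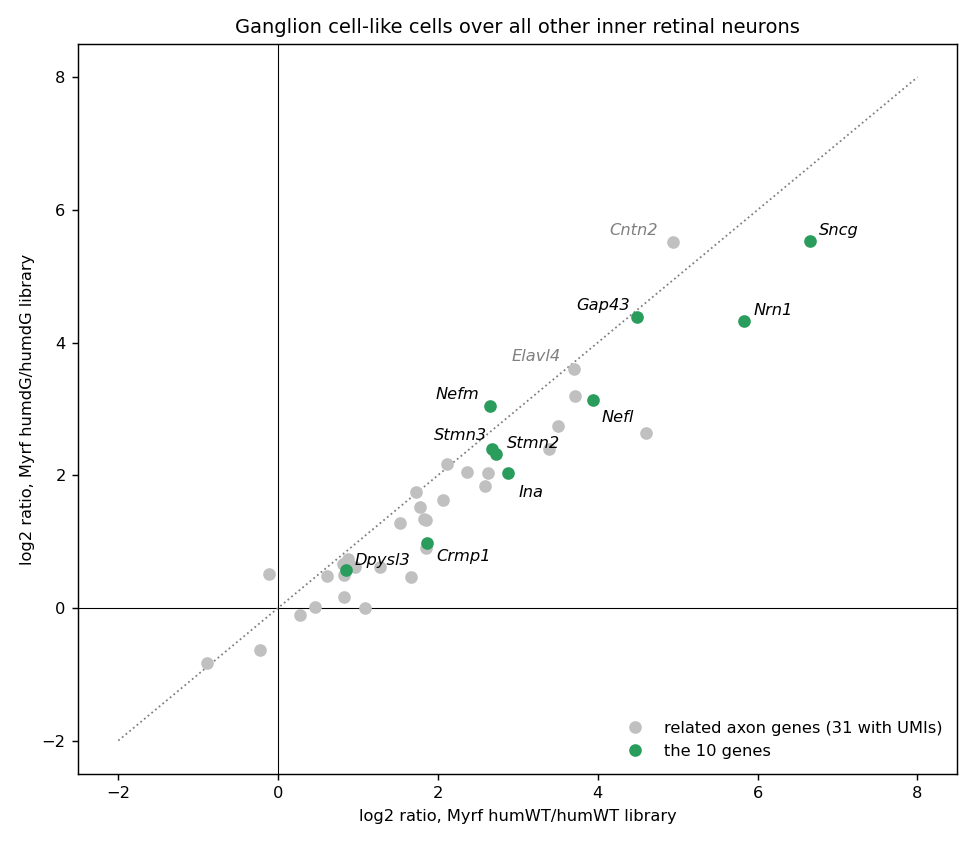
Log2 ratio of the level in ganglion cell-like cells over all other inner retinal neurons in the Myrf humWT/humWT (horizontal) and Myrf humdG/humdG (vertical) library for the 10 genes (green) and related axon genes with UMIs in both groups (grey), where the dotted line marks equal ratios. Sncg, Nrn1 and Gap43 lie far to the upper right, and Dpysl3 lies closest to 0 among the 10 genes.

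Sncg had the highest of these ratios of the 10 genes in both libraries. It was at 1621 CPM (1478 to 1774) and 1197 CPM (1087 to 1316) in ganglion cell-like cells and at 83.4 CPM (55.0 to 121) and 61.9 CPM (40.8 to 90.1) in the Lhx1 subcluster. In the Ptf1a, Meis2 and Isl1 subclusters of inner neurons Myrf humWT/humWT had 0 to 7.43 CPM of it while Myrf humdG/humdG had 11.0 to 18.9 CPM, where red blood cell-like cells had 6.97 CPM (3.99 to 11.3) and 33.9 CPM (24.0 to 46.5). Gap43 was likewise highest in ganglion cell-like cells, with 1951 CPM (1794 to 2119) and 2085 CPM (1939 to 2239) there and 361 and 312 CPM in the Lhx1 subcluster, but it was also present outside the retina. It was at 154 and 136 CPM in mesenchyme-like cells and 170 and 191 CPM in neural crest and glia-like cells, above its 24.8 and 52.6 CPM in red blood cell-like cells. Nrn1 was low, with 127 CPM (89.7 to 176) and 130 CPM (95.5 to 173) in ganglion cell-like cells and 75.8 and 83.7 CPM in neural crest and glia-like cells. All other inner retinal neurons together had 2.24 CPM (1.22 to 3.75) and 6.46 CPM (5.16 to 8.0) of Nrn1, against 1.31 CPM (0.27 to 3.82) and 3.57 CPM (0.97 to 9.13) in red blood cell-like cells. In the Lhx1 subcluster it had 0 UMIs in Myrf humWT/humWT, which allows up to 11.4 CPM, and 2 UMIs in Myrf humdG/humdG.

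The neurofilament genes were shared by ganglion cell-like cells and some cells of the Lhx1 subcluster. Nefl was at 950 CPM (841 to 1069) and 379 CPM (318 to 448) in ganglion cell-like cells and at 819 CPM (723 to 923) and 429 CPM (370 to 495) in the Lhx1 subcluster. The ratio between these groups was 1.16 (0.98 to 1.38) and 0.88 (0.70 to 1.11), so neither library separated them beyond counting error. A finer division, added after the data were seen, set apart 11 of 31 and 17 of 59 Lhx1 subcluster cells, with median depths of 17877 and 15029 UMIs. The division used none of the 10 genes, but these cells were picked because Nefl was among the 10 leading genes of their part. Their higher Nefl was thus fixed by the choice and is a description. In these cells Nefl was at 1341 CPM (1181 to 1516) and 675 CPM (577 to 785), and in the other 20 and 42 cells, with median depths of 5718 and 4221 UMIs, it was at 82.0 CPM (40.9 to 147) and 97.0 CPM (57.5 to 153). Nefm, which was also among the 10 leading genes of that part, was at 1235 and 531 CPM against 171 and 156 CPM, likewise a description. Nefm was lower in ganglion cell-like cells in Myrf humWT/humWT, at 372 CPM (305 to 449) against 794 CPM (700 to 897), a ratio of 0.47 (0.37 to 0.59), while in Myrf humdG/humdG the values were 318 and 372 CPM, with a ratio of 0.86 (0.67 to 1.09). In the Ptf1a subclusters both genes were at 5.78 to 17.1 CPM, close to the 7.41 to 16.9 CPM of red blood cell-like cells. Nefl and Nefm are neighbours on chromosome 14 of GRCm38, where Nefl (68083863 to 68089095, plus strand) lies inside the span of Nefm (68082590 to 68124846, minus strand), and whether reads were counted by strand is not given in the sources used here. If strand was not used, reads of the 2 genes cannot be told apart where they overlap.

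Ina was shared by 3 groups. It was at 726 CPM (631 to 831) and 697 CPM (613 to 788) in ganglion cell-like cells, 531 and 525 CPM in the Lhx1 subcluster, and 357 CPM (271 to 461) and 944 CPM (875 to 1017) in the Isl1 subcluster. The Isl1 subcluster had Isl1 at 824 and 1454 CPM and Tfap2b at 560 and 1011 CPM. It stayed unnamed because none of its raised amacrine and horizontal markers was among its 20 leading genes. Relative to it, Ina was 2.04-fold higher in ganglion cell-like cells in Myrf humWT/humWT (1.52 to 2.77) and 0.74 times as high in Myrf humdG/humdG (0.64 to 0.85), so the order of the groups differed between the libraries. Stmn2 and Stmn3 were found in all inner neuron groups. Stmn2 was at 2557 CPM (2376 to 2748) and 2323 CPM (2168 to 2485) in ganglion cell-like cells, 1286 and 1103 CPM in the Meis2 subcluster, 1208 and 901 CPM in the Lhx1 subcluster, and 549 and 747 CPM in the Ptf1a subclusters. Stmn3 was at 1015 CPM (903 to 1138) and 943 CPM (846 to 1049) in ganglion cell-like cells, 394 to 643 CPM in the Lhx1, Meis2 and Isl1 subclusters and 201 and 226 CPM in the Ptf1a subclusters.

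Crmp1 and Dpysl3 had the lowest ratios of ganglion cell-like cells over other inner neurons. Crmp1 was at 471 CPM (396 to 557) and 312 CPM (258 to 376) in ganglion cell-like cells, 295 and 321 CPM in the Isl1 subcluster, 296 and 272 CPM in the Meis2 subcluster and 196 and 234 CPM in the Ptf1a subclusters. In Myrf humdG/humdG its level in ganglion cell-like cells and in the Isl1 subcluster could not be separated, with a ratio of 0.97 (0.77 to 1.22). Dpysl3 was higher in the Isl1 subcluster, at 1113 CPM (957 to 1288) and 1029 CPM (957 to 1105), than in ganglion cell-like cells, at 626 CPM (539 to 724) and 666 CPM (585 to 756). It was also at 465 and 583 CPM in photoreceptor precursor-like cells and 424 and 354 CPM in mesenchyme-like cells, and most of its UMIs lay outside the inner retina. The retinal progenitor-like cells had 42.1 and 47.2 CPM of Dpysl3, below its 79.3 and 94.5 CPM in red blood cell-like cells.

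**Figure D2:**
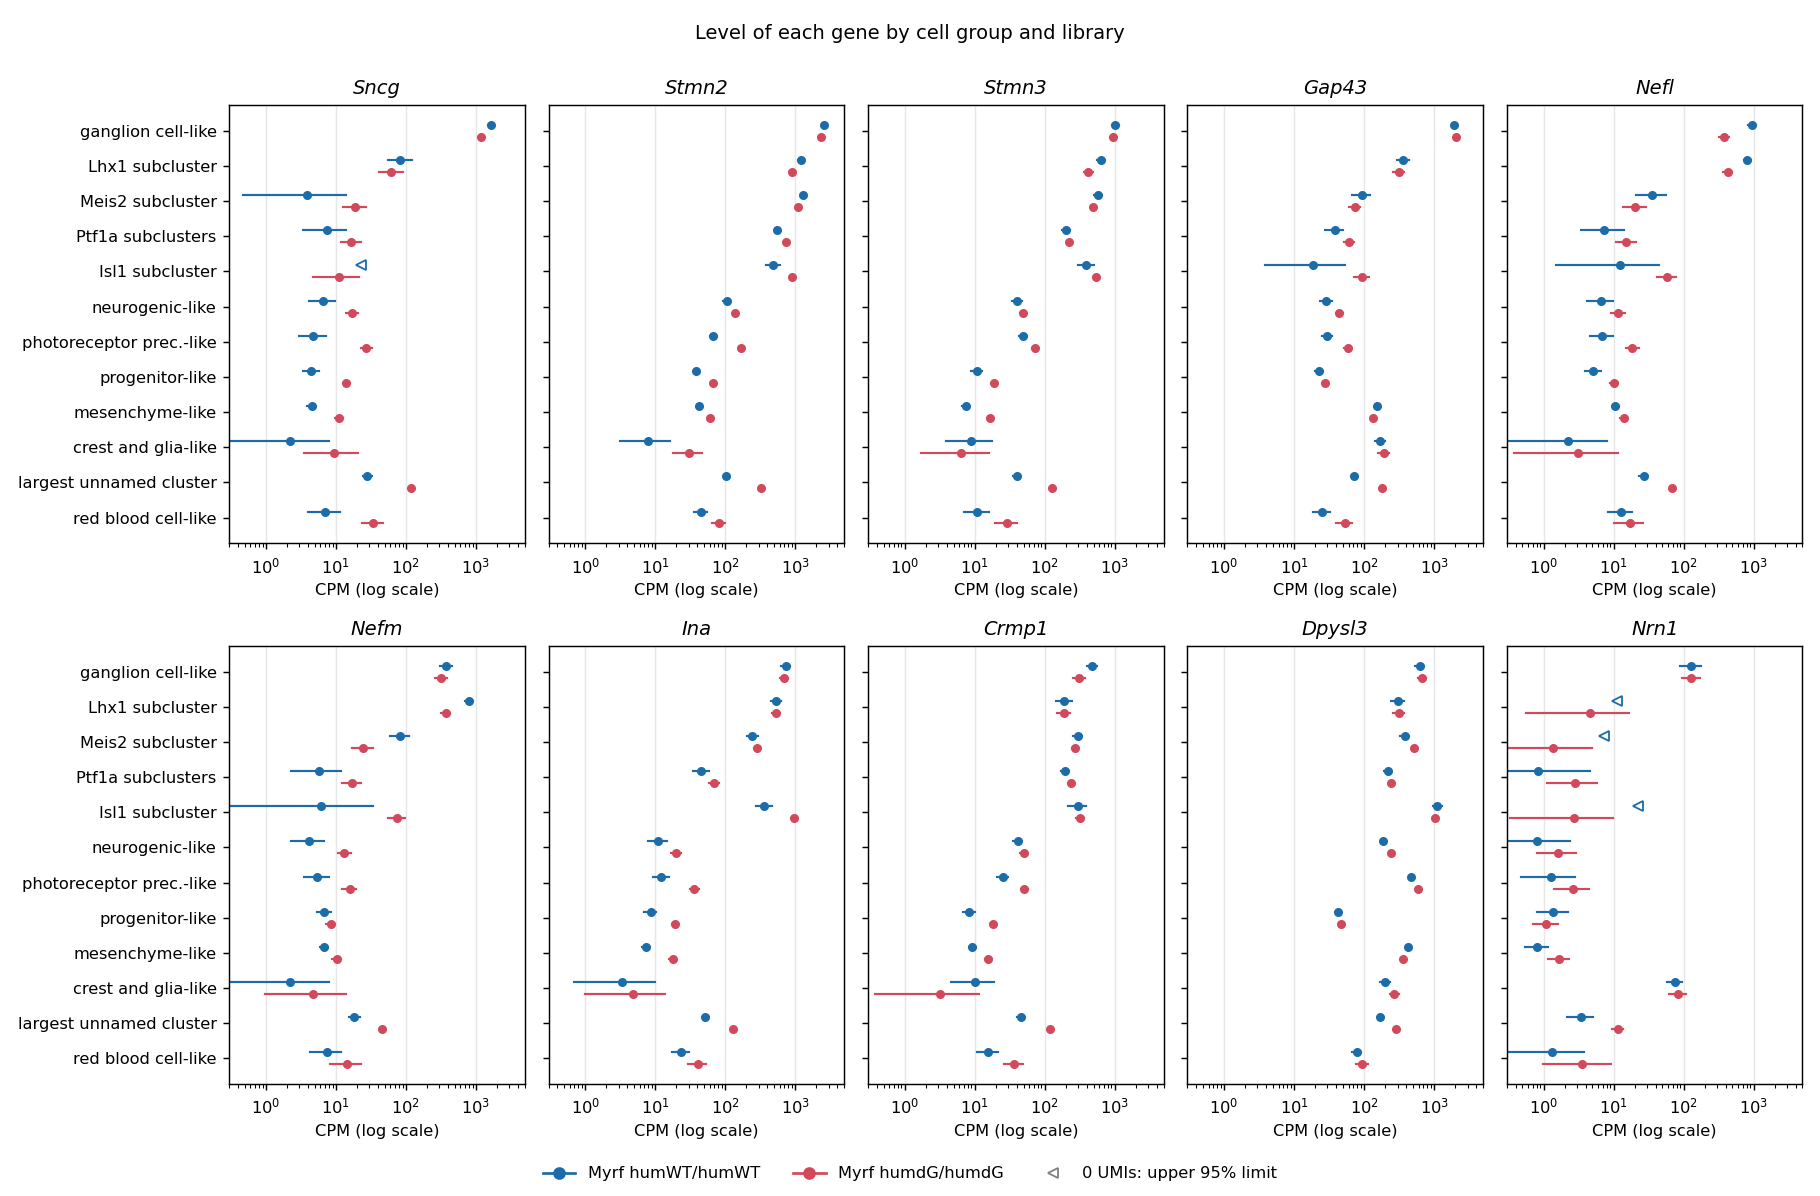
Level of each of the 10 genes in CPM (log scale) in 12 cell groups, for the Myrf humWT/humWT (blue) and Myrf humdG/humdG (red) library, with points for the summed UMIs and bars for the exact Poisson interval. Sncg falls from over 1000 CPM in ganglion cell-like cells to under 100 CPM in the Lhx1 subcluster, whereas Crmp1 lies between 186 and 471 CPM in the 5 inner neuron groups shown.

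For Sncg and Stmn2, the share of cells with a UMI also set ganglion cell-like cells apart from the background. After each cell was thinned to 1000 UMIs, Sncg was found in 5 of 25 ganglion cell-like cells (interval 6.83% to 40.7%) and in 8 of 37 (21.6%, 9.83 to 38.2). Red blood cell-like cells gave 0.193% and 3.28%. Without thinning the shares were 28.0% and 51.4% in ganglion cell-like cells, with median depths of 6122 and 7133 UMIs, against 3.07% and 13.9% in red blood cell-like cells, with 3962 and 4160 UMIs. Gap43 was found in 56.0% (34.9 to 75.6) and 45.9% (29.5 to 63.1) of thinned ganglion cell-like cells, and Stmn2 in 32.0% (14.9 to 53.5) and 54.1% (36.9 to 70.5). For Stmn2 the background was 4.06% and 7.38%. When cells were thinned to 2000 UMIs, at least 5 of the 10 genes were found together in 8 of 24 ganglion cell-like cells (33.3%, 15.6 to 55.3) and 18 of 37 (48.6%, 31.9 to 65.6). In the Lhx1 subcluster this was 35.5% and 17.2% of cells, in the Isl1 subcluster 0 of 20 and 24.7%, and in the retinal progenitor-like cells 0 of 1229 and 0 of 2257.

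The level in ganglion cell-like cells came from few and deep cells. In Myrf humWT/humWT, the 5 cells of 20000 UMIs or more held 2707 of the 3027 UMIs of the 10 genes (89.4%) and 59.4% of all UMIs of the group. In Myrf humdG/humdG, the 4 cells of this depth held 57.3% of the UMIs of the 10 genes and 30.4% of all UMIs. With the limit at 10000 UMIs, 7 cells held 91.7% of the UMIs of the 10 genes in Myrf humWT/humWT, and 9 cells held 82.5% in Myrf humdG/humdG. The 10 genes made up at least 1% of the cell in 4 of 25 cells of Myrf humWT/humWT, as in 7 of 37 of Myrf humdG/humdG, and all of these had over 10000 UMIs. Among the 18 and 28 cells of under 10000 UMIs, the 10 genes made up 0.04% to 0.94% and 0.09% to 0.90% of the cell, with medians of 0.21% and 0.35%. A cell of 20031 UMIs in Myrf humWT/humWT had 0.04%.

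**Figure D3:**
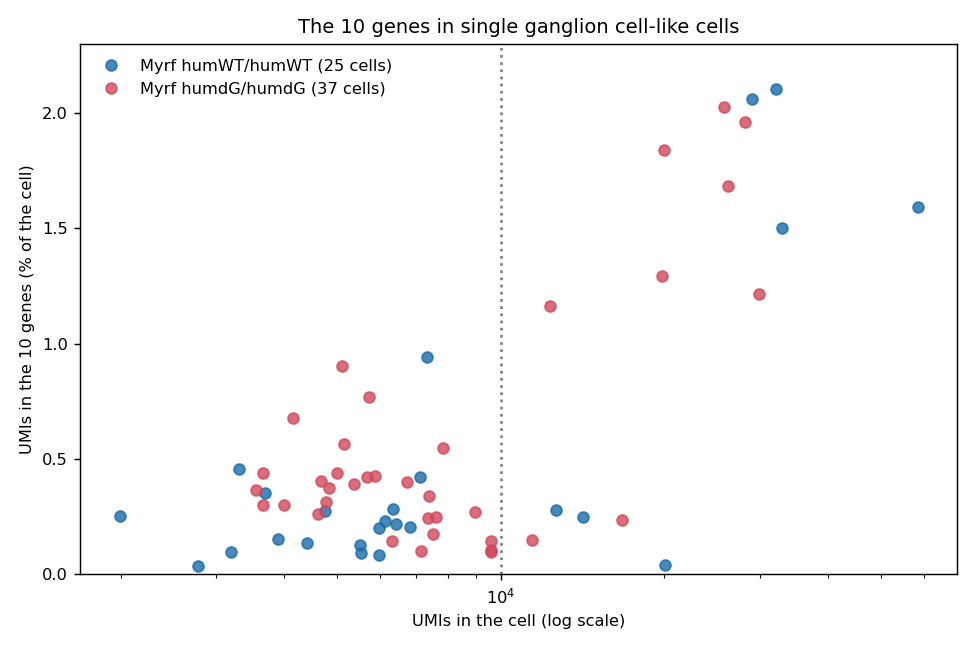
Share of UMIs in the 10 genes (percent of the cell) against the number of UMIs in the cell (log scale) for each ganglion cell-like cell of the Myrf humWT/humWT (blue, 25 cells) and Myrf humdG/humdG (red, 37 cells) library, with a dotted line at 10000 UMIs. All cells at 1% or more lie to the right of the line.

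The 10 genes differed in how strongly they followed this split. Sncg was 35.4-fold higher in Myrf humWT/humWT cells of 10000 UMIs or more than in those under it (16.2 to 97.1) and 16.8-fold higher in Myrf humdG/humdG (11.0 to 27.2). Of its UMIs, 6 and 22 came from the shallower cells. Nefl was 8.56-fold (5.01 to 15.9) and 5.27-fold (3.26 to 8.95) higher in the deep cells, and Gap43 4.01-fold (3.05 to 5.36) and 5.22-fold (4.26 to 6.45). For Dpysl3 the ratios were 2.14 (1.46 to 3.25) and 1.65 (1.26 to 2.18). Nrn1 gave 1.96 (0.84 to 5.29) and 1.22 (0.66 to 2.29), which did not exceed counting error. The ganglion cell markers did not all follow the members. Pou4f1 was at 98.7 and 75.8 CPM in the shallower and 256 and 174 CPM in the deeper cells, but Ebf1 was higher in the shallower cells, at 4112 and 5133 CPM against 2859 and 1509 CPM, and Rbpms likewise, at 1140 and 893 CPM against 712 and 489 CPM. Atoh7, which was among the neurogenic markers used here, was at 65.8 and 46.7 CPM in the shallower and 446 and 684 CPM in the deeper cells. The mesenchyme marker Col3a1 was at 362 and 677 CPM in the shallower and 130 and 73.6 CPM in the deeper cells. Red blood cell-like cells had 651 and 170 CPM of it, so only the shallower Myrf humdG/humdG cells were above that level. The group was thus not uniform in its markers, and the part of mesenchyme RNA in the shallower cells was not tested.

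Because a few cells carry the sum, the weight given to each cell mattered. The mean of per-cell CPM, which counts each cell equally, was 4948 and 5870 CPM for the 10 genes, so that the order of the libraries was the opposite of that from summed UMIs. Leaving out in each library the cell with the most UMIs of the 10 genes gave 9029 and 8159 CPM. That cell in Myrf humWT/humWT had 58453 UMIs and gave 39.9% of the Sncg and 41.7% of the Ina UMIs of its group.

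The families of the members were measured in the same cells. The synuclein gene Sncb had only 4 and 8 UMIs. Stmn1 was at 3689 and 2917 CPM in ganglion cell-like cells and was 3.61-fold and 2.52-fold higher there than in other inner neurons, and Stmn4 was 4.17-fold and 3.10-fold higher. The heavy neurofilament gene Nefh had 0 UMIs in the ganglion cell-like cells of both libraries, which allows up to 12.7 and 10.2 CPM, and peripherin (Prph) had 1 and 0. Of the collapsin response mediator family, Dpysl5 was 3.62-fold (2.69 to 4.79) and 1.86-fold (1.42 to 2.40) higher and Dpysl2 1.94-fold and 1.54-fold higher, while Dpysl4 was lower, with ratios of 0.54 (0.31 to 0.87) and 0.57 (0.38 to 0.81). The growth cone gene Basp1 was 2.88-fold and 2.44-fold higher, Marcksl1 1.77-fold and 1.40-fold higher, and Marcks had ratios of 1.21 (1.05 to 1.38) and 0.93 (0.81 to 1.06). Nrn1l, the neuritin relative, had 1 and 2 UMIs. Cntn2, an axonal adhesion molecule named after its values were seen, had the highest ratio of the related list in both libraries, 30.6 (18.1 to 52.7) and 45.8 (36.7 to 57.0).

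Across clusters and libraries, the genes whose log2 level was most like the mean of the 10 were Rab6b (Pearson r 0.92), Gng3 (0.90), Sept3 (0.88), Gprin1 (0.88), Mmp24 (0.87), Add2 (0.87), Ttc9b (0.86), Celf5 (0.86), Pcsk1n (0.86) and Myt1l (0.86). This was computed over 74 points, each a cluster or subcluster of at least 10 cells in 1 library, and over 15886 genes. The 10 genes and the 33 related axon genes were left out of the ranking. The points share 2 libraries and their depth, so the values are a description with no p. The members themselves correlated with their mean at 0.93 for Ina and 0.92 for Stmn3, down to 0.64 for Dpysl3 and 0.48 for Nrn1. Each member is itself 1 of the 10 terms of that mean, so these values cannot be set beside those of the other genes.

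Between genotypes, the 10 genes had no common direction in ganglion cell-like cells. None of the 10 was at least 2-fold higher in Myrf humdG/humdG, where 3.95% of 5775 genes were, and 1 was at least 2-fold lower, where 4.40% were. This was Nefl, with 276 and 137 UMIs and a log2 ratio of -1.33 (-1.63 to -1.03). Sncg had a log2 ratio of -0.44 (-0.63 to -0.25) and Crmp1 of -0.59 (-0.97 to -0.22). For the other 7 the interval held 0, with ratios from -0.22 for Nefm to 0.10 for Gap43 (for Stmn2 -0.14, -0.28 to 0.01), and the median of the 10 was -0.12 against -0.03 for all genes tested. In cells of 10000 UMIs or more, Nefl was at 1314 CPM in 7 Myrf humWT/humWT cells and 615 CPM in 9 Myrf humdG/humdG cells (log2 ratio -1.09, -1.42 to -0.78), whereas Sncg was at 2332 and 2161 CPM (-0.11, -0.30 to 0.08) and Gap43 at 2553 and 3381 CPM (0.41, 0.24 to 0.58). In cells under 10000 UMIs, Nefl was at 154 and 117 CPM (-0.40, -1.45 to 0.70) and Sncg at 65.8 and 128 CPM (0.96, -0.38 to 2.56), from 6 and 22 UMIs. In cells of 20000 UMIs or more Sncg had 0.20 (-0.0021 to 0.41), so its ratio of -0.44 over the whole group was seen at none of these depths, and by the mean of per-cell CPM it was 0.088. Without the cell with the most Nefl UMIs in each library its levels were 726 and 292 CPM. When ganglion cells were instead taken as all cells with at least 2 of 6 ganglion cell markers, Nefl had a log2 ratio of 0.55, but of these 1761 and 1463 cells only 23 and 36 were ganglion cell-like and 876 and 456 were mesenchyme-like. Hba-a1, a haemoglobin gene of red blood cells, was at 478 CPM in the Myrf humWT/humWT ganglion cell-like cells and at 3921 CPM in those of Myrf humdG/humdG, where a single cell, itself of 16753 UMIs, gave 1117 of its 1418 UMIs. Without the cell with the most Hba-a1 UMIs in each library, a choice made after the data were seen, Hba-a1 was at 449 and 873 CPM, and the log2 ratios were -1.34 for Nefl, -0.44 for Sncg and -0.60 for Crmp1. Whether these values describe the genotype or the few cells sampled cannot be told apart with 1 library each.

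In the Lhx1 subcluster the neurofilament genes were also lower in Myrf humdG/humdG, with log2 ratios of -0.93 (-1.21 to -0.66) for Nefl and -1.10 (-1.39 to -0.81) for Nefm. Stmn2 (-0.42, -0.63 to -0.22) and Stmn3 (-0.61, -0.90 to -0.31) were lower too, and Ina had -0.02 (-0.31 to 0.28). The 11 and 17 cells that were picked from the finer division for their Nefl made up 35.5% and 28.8% of the subcluster. In them the ratios were -0.99 (-1.28 to -0.70) for Nefl and -1.22 (-1.54 to -0.90) for Nefm. In the other cells they were 0.24 (-0.92 to 1.47) and -0.13 (-0.97 to 0.72). Cells with at least 0.5% of their UMIs in the 9 genes without Dpysl3 made up 32.3% and 11.9% of the subcluster. Its median depth was 8984 and 4504 UMIs, and the part of depth in these ratios was not tested. Over all inner retinal neurons other than ganglion cell-like cells, 1 of the 10 genes was at least 2-fold higher in Myrf humdG/humdG, where 3.71% of 15918 genes were. This was Nrn1, from 14 and 84 UMIs. Nefl (-0.52) and Nefm (-0.62) were lower over these cells and Ina (0.78, 0.65 to 0.91) was higher. Their UMIs, 6257265 and 12993117, include 323679 and 435999 of the Lhx1 subcluster and 162604 and 728794 of the Isl1 subcluster. They held 20.5% of 1895 and 21.0% of 2678 Nefl UMIs, and the 11 and 17 picked Lhx1 subcluster cells alone gave 254 and 169. The ratios were not taken without these subclusters, so they do not show a lower Nefl or Nefm in the other inner neurons. The part of make-up in them was not tested. In the Isl1 subcluster, Ina had 58 UMIs in 20 cells, against 688 UMIs in 77 cells, and a log2 ratio of 1.40 (1.02 to 1.82), while Dpysl3 had -0.11 (-0.35 to 0.13). Of the 8 members tested there, 7 were above 0 and 4 at least 2-fold higher, where 726 of 6636 genes were. The median log2 ratio was 1.15 for these 8 and 0.07 for all genes tested. Hba-a1 was at 3739 and 565 CPM and Ebf1 at 246 and 22.0 CPM in this subcluster, and their part in the ratios was not tested.

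The libraries differed in make-up, with 1245 and 134 cartilage-like, 2018 and 733 muscle-like and 1238 and 2275 retinal progenitor-like cells. Inner retinal neurons other than ganglion cell-like cells held 5.22% and 12.1% of all UMIs. They held 13.9% and 26.4% of the UMIs of the 10 genes. The part of this make-up in the ratios that follow was not tested. Outside the inner retinal neurons the 10 genes summed were higher in Myrf humdG/humdG in 16 of 18 cell groups. The exceptions were mesenchyme-like cells, at 667 and 636 CPM, and a smaller unnamed cluster, at 453 and 261 CPM. By the median share of a cell's UMIs in the 9 genes without Dpysl3, mesenchyme-like cells were higher in Myrf humdG/humdG, at 0.0152% and 0.0263%. The smaller unnamed cluster stayed lower, at 0.0096% and 0.0059%. The largest unnamed cluster held 2875 Myrf humWT/humWT cells with a median of 2220 UMIs and 6854 Myrf humdG/humdG cells with a median of 1635, and its 10 leading genes held Sncg, Ina, Pou4f1 and Crmp1 beside Cdk8, Gphn, Lars2 and Gm42418. It stayed unnamed because under 3 markers of any class were raised. There, 9 of the 10 genes were at least 2-fold higher in Myrf humdG/humdG, where 7.58% of 14621 genes were, and the median log2 ratio was 1.38 for the 10 genes against 0.31 for all genes tested. Sncg was at 28.2 CPM (24.4 to 32.5) and 117 CPM (111 to 123), which is a log2 ratio of 2.05 (1.83 to 2.27). Stmn2 was at 103 and 320 CPM (1.64, 1.52 to 1.76) and Nefl at 26.9 and 68.5 CPM (1.35, 1.12 to 1.59). Dpysl3 was the exception, at 0.73 (0.63 to 0.83). Of the 31 related genes measured, 30 were above 0 and 11 at least 2-fold higher, with a median of 0.84. Of all Sncg UMIs, 12.3% and 36.6% lay in this cluster, which held 5.64% and 11.0% of all UMIs. Ganglion cell-like cells held 30.4% and 11.4% of the Sncg UMIs with 0.24% and 0.34% of all UMIs.

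A higher level in Myrf humdG/humdG was also seen in red blood cell-like cells, which should not express these genes, and in retinal groups outside the inner neurons. In red blood cell-like cells 9 of the 10 genes could be tested, all 9 had ratios above 0 and 4 were at least 2-fold higher in Myrf humdG/humdG, where 4.63% of 7649 genes were. Sncg had a log2 ratio of 2.28 (1.40 to 3.22) there, from 16 and 38 UMIs, and Dpysl3 0.25 (-0.11 to 0.61). In photoreceptor precursor-like cells 6 of 9 were at least 2-fold higher, where 1.81% of 13344 genes were, in retinal progenitor-like cells 3 of 10, where 1.84% of 15427 were, and in neurogenic-like cells 2 of 9, where 1.70% of 13218 were. After the red blood cell-like level of the same library was subtracted, the 10 genes were at 332 and 1000.2 CPM in the largest unnamed cluster. This subtraction was not matched for depth. Red blood cell-like cells had medians of 3962 and 4160 UMIs, against 2220 and 1635 in the cluster, and their level was higher in shallower cells. It therefore cannot give the part of free RNA in these ratios, which was not tested further.

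**Figure D4:**
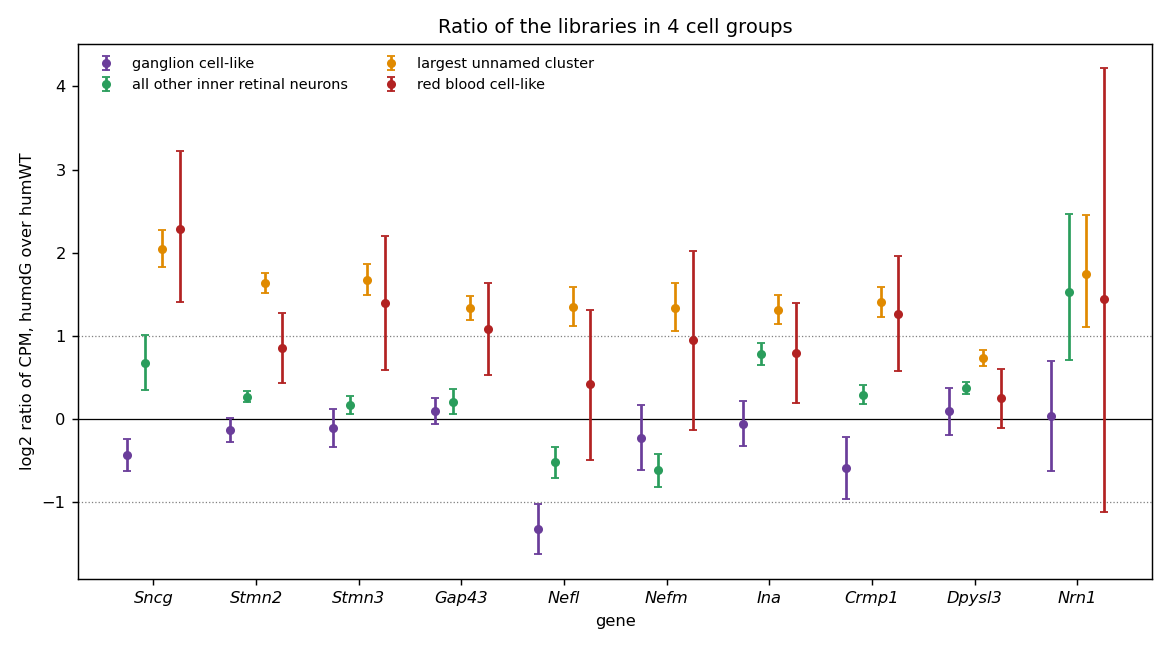
Log2 ratio of CPM in Myrf humdG/humdG over Myrf humWT/humWT for the 10 genes in 4 cell groups, with 95% intervals for counting error and dotted lines at a 2-fold difference. In the largest unnamed cluster 9 genes lie above the upper line, and in ganglion cell-like cells Nefl lies below the lower one.

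Cell depth moved with these levels. In cells outside the inner retinal clusters, 9 genes (without Dpysl3, which mesenchyme-like cells express) summed to 1010 CPM in Myrf humdG/humdG cells under 2000 UMIs, 708 CPM at 2000 to 5000, 300 CPM at 5000 to 10000, 216 CPM at 10000 to 20000 and 199 CPM at 20000 or more. In Myrf humWT/humWT the same bins gave 354, 282, 172, 171 and 178 CPM. The libraries thus differed most in the shallowest cells and least in the deepest. These bins differ in cell type as well as depth. Mesenchyme-like cells, in which Gap43 was also above the red blood cell-like level, had median depths of 13089 and 12989.5 UMIs. The largest unnamed cluster had 2220 and 1635. Gap43 was kept in the sum, and the parts of depth and of cell type were not separated. Of the cells under 2000 UMIs, the largest unnamed cluster held 5448 of 6899 in Myrf humdG/humdG and 1098 of 1656 in Myrf humWT/humWT. In red blood cell-like cells the 10 genes were also lower at greater depth, with 767 CPM (496 to 1132) under 2000 UMIs and 149 CPM (83.2 to 245) at 10000 to 20000 UMIs in Myrf humdG/humdG, and 620 CPM (470 to 801) and 78.9 CPM (36.1 to 150) in Myrf humWT/humWT. In ganglion cell-like cells the deepest bin was the highest, at 15684 and 17080 CPM, against 2190 and 3870 CPM at 2000 to 5000 UMIs. There was no steady climb below it in Myrf humWT/humWT, where the 9 genes were at 1998, 2565 and 1829 CPM from 2000 up to 20000 UMIs, while in Myrf humdG/humdG they were at 3310, 2692 and 9377 CPM.

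**Figure D5:**
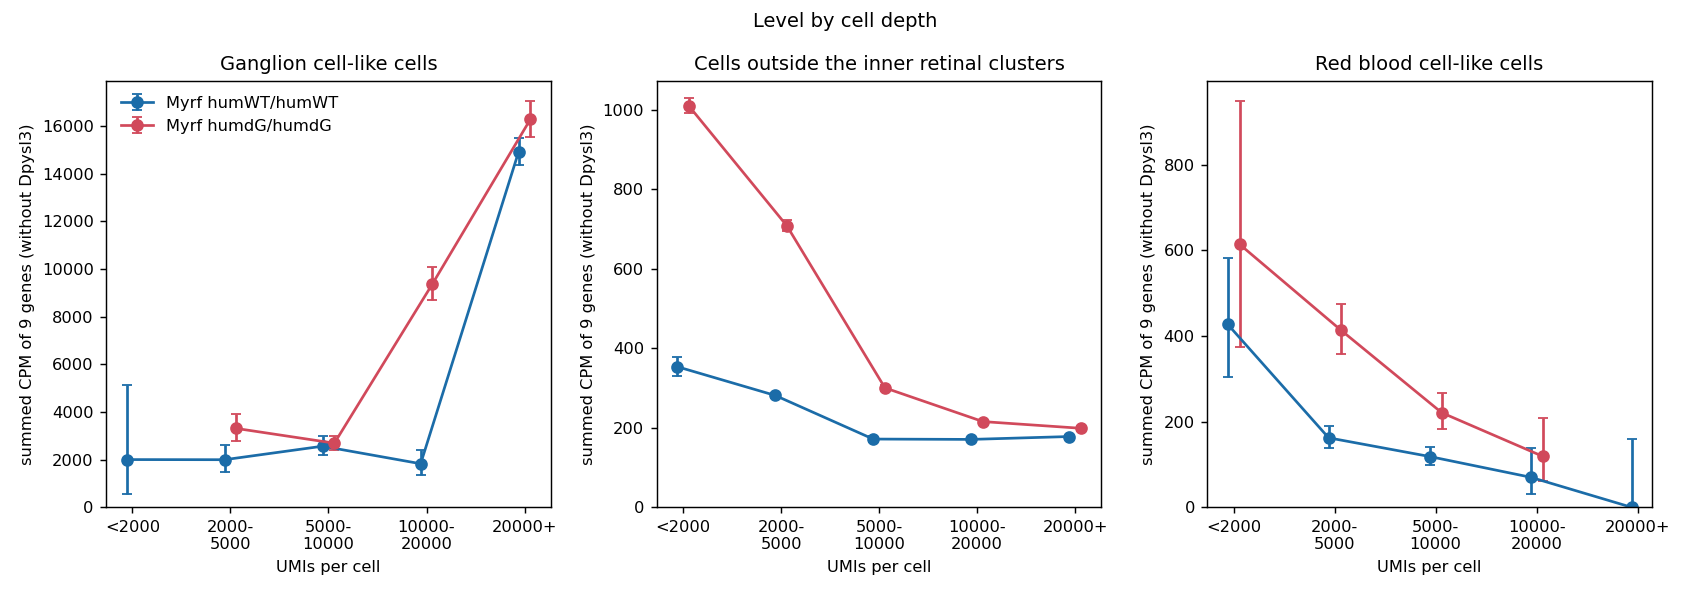
Summed level of 9 of the 10 genes (CPM, without Dpysl3) against UMIs per cell in ganglion cell-like cells, cells outside the inner retinal clusters and red blood cell-like cells, for the Myrf humWT/humWT (blue) and Myrf humdG/humdG (red) library with exact Poisson intervals. In ganglion cell-like cells the deepest cells have the highest level, whereas in the other 2 panels, each with its own vertical scale, the shallowest cells do.

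Some cells of the largest unnamed cluster had a share of the 10 genes in the range of the ganglion cell-like cells. With a limit of 0.5% of UMIs in the 9 genes without Dpysl3, chosen after the data were seen, 8 of the 2875 cells of this cluster passed in Myrf humWT/humWT, with 56 of 6854 in Myrf humdG/humdG. They held 4.90% and 10.9% of the cluster's UMIs of the 10 genes. Their median depth was 2824 and 2388 UMIs, and 2 of the Myrf humdG/humdG cells of the cluster lay between 10000 and 20000 UMIs with 11282 CPM of the 10 genes together. A UMI of Pou4f1, Pou4f2 or Pou4f3, the ganglion cell transcription factors, was present in 4 of the 8 (interval 15.7% to 84.3%) and 30 of the 56 (53.6%, 39.7 to 67.0), against 4.22% and 8.13% of the other cells of the cluster, whose median depth was 2219 and 1632 UMIs. Leaving these cells out lowered the cluster's log2 ratio of the 10 genes summed from 1.33 to 1.25.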

How the data were processed

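The authors deposited raw UMI counts per gene and cell (17421 Myrf humWT/humWT and 19565 Myrf humdG/humdG barcodes) from 1 10x Genomics library per genotype, made per the labels with Cell Ranger 7.1.0 on mm10; whether intron reads or strand were counted is not given in the sources used here. Cells with over 500 genes and under 15% mitochondrial UMIs were kept, and the 5% of cells with the highest Scrublet scores were left out, since its own threshold called next to no doublets. Libraries were integrated in Seurat 5.3.0 (R 4.3.3) on 20 dimensions of 2000 variable genes, from which 14 axon genes were taken out. Cells were clustered on the first 20 of 30 components at resolution 1.0. The 3 inner retinal clusters were clustered again at 0.5, a step chosen after the data were seen. Clusters were named from marker lists, with at least 3 markers raised 2-fold and 1 among the 20 leading genes. UMIs were summed per group and library and given as CPM with exact Poisson intervals. Ratios carry exact conditional binomial intervals and shares Clopper-Pearson intervals, after thinning to 1000 UMIs. Ratios between libraries were counted over genes with at least 20 UMIs in the group. Likeness used log2(CPM + 10). The ratio procedure was run on simulated Poisson counts. Its intervals assume such counts, so this run cannot speak to spread between cells or libraries. The members and lists were chosen with earlier results of these data known. Named genes are the 10 members, their families in a list of 33 related genes, and the 10 genes outside these lists most like the members. The libraries held 129135207 and 114319529 UMIs, and with 1 per genotype no test between genotypes was run. Alternatives covered filters, clustering, weighting, free RNA and depth. Values of some genes are not reported here.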

Additional observations from a re-analysis of the deposited data

Results flagged for a closer look

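For 3 of the 10 genes the ratio of the libraries pointed in opposite directions in ganglion cell-like cells and in the largest unnamed cluster, with both counting intervals off 0. Sncg had a log2 ratio of Myrf humdG/humdG over Myrf humWT/humWT of -0.44 in ganglion cell-like cells and 2.05 in the unnamed cluster. In ganglion cell-like cells it turned to 0.96 under 10000 UMIs and 0.088 by per-cell means. Under the gate of at least 2 markers it was 1.13, but of the 1761 and 1463 cells of that gate only 23 and 36 were ganglion cell-like. Nefl, the light neurofilament subunit, had -1.33 and 1.35. Crmp1, a collapsin response mediator, had -0.59 and 1.41. In the cells of the same gate Nefl had 0.55 and Crmp1 1.30. In red blood cell-like cells the same genes had 2.28, 0.42 and 1.26. The difference between the cell groups was not tested, since there is 1 library per genotype.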

How the results depend on the processing

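No paired analysis was possible because each genotype has 1 library and no test was run. Settings named as added were chosen after seeing the data. The 10 genes summed in ganglion cell-like cells (10417 CPM in Myrf humWT/humWT, 9051 in Myrf humdG/humdG) came to 10801 CPM in Myrf humWT/humWT under a 10% mitochondrial limit and 9377 in Myrf humdG/humdG with the members kept for clustering. A gate of at least 2 markers gave 709 and 909 CPM, but few of its cells were ganglion cell-like. The mean of per-cell CPM gave 4948 and 5870, and subtraction of the red blood cell-like level 8650 in Myrf humdG/humdG. Added settings gave 9029 and 8159 CPM without the cell of most member UMIs, 10824 and 9377 without the cell of most Hba-a1 UMIs, 2741 and 3343 under 10000 UMIs, and 13928 and 14196 at 10000 UMIs and over. Their log2 ratio of -0.20 became 0.36 under the gate, 0.25 by per-cell means, 0.29 under 10000 UMIs and 0.028 over it. Sncg turned from -0.44 to 1.13 under the gate, 0.088 by per-cell means and 0.96 under 10000 UMIs. Under the gate Nefl turned from -1.33 to 0.55, and 4 of the 10 genes in place of 0 were at least 2-fold higher. Under 10000 UMIs it was 1. The share of all genes past 2-fold was not counted in these settings, so these counts have no background to be set against.

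In the largest unnamed cluster (559 and 1401 CPM) the sums were 582 and 1423 with 10% of doublet scores left out, 539 and 1342 at resolution 0.5, 759 and 1336 without integration, 469 and 1139 with the members kept, 1582 in Myrf humdG/humdG without cells under 2000 UMIs, 1348 there by per-cell means, 332 and 1000.2 after subtraction of the red blood cell-like level, and 533 and 1266 without the high-content cells (added). The log2 ratio of 1.33 was 0.82 without integration, 1.48 without cells under 2000 UMIs, 1.59 after subtraction and 1.25 without high-content cells. The subtracted level was not matched for depth. Without integration the cluster held 126 cells of Myrf humWT/humWT against 7748 of Myrf humdG/humdG, while another held 2756 and 292, so that the libraries lay largely in different clusters. There 5 in place of 9 genes were at least 2-fold higher, and without integration in red blood cell-like cells 7 in place of 4, with a summed ratio of 1.10 in place of 0.83. The share of all genes past 2-fold was not counted without integration, so these counts have no background to be set against. The cause of these differences was not tested.

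Shares of cells followed the thinning. Without it, ganglion cell-like shares were 51.4% for Sncg in Myrf humdG/humdG and 84.0% and 91.9% for Stmn2. Thinning to 2000 UMIs gave 79.2% for Stmn2 in Myrf humWT/humWT. In the unnamed cluster Sncg (2.77% and 8.96%) was at 5.25% and 14.5% without thinning and 4.00% and 16.8% at 2000 UMIs, and Stmn2 (8.50% and 25.1%) at 17.3% and 35.9%, and 15.3% and 41.1%. Of the 10 genes most like the members, 6 remained among the 10 highest without integration, and 6 with 1 CPM added.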
